A study of Mus musculus with 8 samples.

Results

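The nuclear-encoded genes of the mitochondrial respiratory chain and ATP synthase were followed in sorted mouse leukaemic cells with an shRNA against Fubp1. They were chosen by gene symbol: Nduf for complex I, Sdha to Sdhd for complex II, Uqcr for complex III, Cox4 to Cox8 for complex IV and Atp5 for complex V. This gave 100 of the 47729 genes in the count table, of which 47 belonged by name to complex I, 4 to complex II, 10 to complex III, 18 to complex IV and 21 to complex V. After a filter on low counts 88 entered the test, namely 46, 4, 8, 13 and 17 in the order of the complexes. The 12 others comprised 7 pseudogene entries and the tissue-restricted isoforms Cox4i2, Cox6a2, Cox7b2, Cox8b and Cox8c. Cox7b2 and Cox8c had 0 counts in every library. The symbols cover assembly factors and a few genes that are not subunits, so the name of a complex here is that of the symbol.

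Complexes I and II pass electrons from NADH and succinate to ubiquinone, complex III passes them on to cytochrome c, and complex IV passes them to oxygen. The proton gradient made by complexes I, III and IV drives complex V, the ATP synthase. Leukaemic progenitor cells are known to rely on this pathway to differing degrees.

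The knockdown group was 4 mice whose leukaemic cells carried pLKO.1-Venus with an shRNA against Fubp1, and the control group was 4 mice whose cells carried the same lentivirus with a scrambled shRNA. In both groups, marrow cells of 5-fluorouracil-treated C57BL/6 mice also received the MSCV-IRES-RFP BCR-ABL1 retrovirus, which gives a disease like chronic myeloid leukaemia, and were transplanted into recipients irradiated with 900 cGy. Each library was the sorted Lineage- RFP+ Venus+ DAPI- bone marrow cells of 1 mouse, a gate that several immature cell types can pass. The labels give neither the shRNA sequence nor the age of the mice. In such bulk samples fewer cells of a type and less RNA per cell cannot be told apart.

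Expression is given as CPM, counts scaled to the library total and corrected by TMM factors for differences in composition. Total counts ran from 22465303 to 44761356 per library, and 1.39 to 1.55% of them fell on the 100 members. The targeted gene Fubp1 measured 281, 228, 220 and 239 CPM in knockdown replicates 1 to 4, against 296, 284, 291 and 396 CPM in scrambled replicates 1 to 4. The knockdown libraries lay below all scrambled ones, but the difference missed the threshold, at -0.39 on the log2 scale (SE 0.12) and an adjusted p of 0.0604 by edgeR's quasi-likelihood test; it passed with DESeq2 (adjusted p = 0.0145) and without a low-count filter (adjusted p = 0.0365). Knockdown replicate 3 lay with the scrambled libraries on the first principal component of all tested genes, which held 61.1% of the variance. Primary granule markers (Mpo, Elane, Prtn3, Ctsg and Ms4a3), which mark promyelocytes, summed to 1963, 940, 85.8 and 3583 CPM in the knockdown libraries and to 35.4, 164, 330 and 83.3 CPM in the scrambled libraries.

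The respiratory chain genes differed little between knockdown and scrambled cells, and 6 of them were lower at an adjusted p under 0.05. All 6 carry complex I symbols: Ndufa4l2, Ndufaf1, Ndufa4, Ndufs4, Ndufa5 and Ndufs1. Complex I by symbol held 46 of the 88 tested members, and 13% of these were lower, where 7.29% of all tested genes were. That share counts Ndufa4 and its paralog Ndufa4l2, both called, although NDUFA4 is known to sit in complex IV. Ndufa4l2 passed the low-count filter through the scrambled libraries. By edgeR's quasi-likelihood test 0 members were higher at this threshold; DESeq2 called 2 higher, Cox4i2 and Uqcr10. Of all 13462 tested genes 15.3% were called, 8.02% as higher and 7.29% as lower, whereas 6.82% of the 88 members were called. The share of members called was therefore below the share of all genes called, and the share called lower was close to its background of 7.29%. At an unadjusted p under 0.05, 13 members were lower and 5 higher, while 33.5% of all tested genes passed that level in either direction. Without knockdown replicate 3, 11 members were lower and 1 higher, with 24.7% of all tested genes called, and without scrambled replicate 1, 2 or 3 the number lower was 3.

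Fitted changes were small and leaned downward. The median log2 fold change (knockdown minus scrambled) of the 88 tested members was -0.08, where that of all tested genes was 0.00. Without knockdown replicate 4 the members' median was -0.05. The fitted change was below 0 for 68 members, or 77.3%, compared with 49.8% of all tested genes. For 82 members, or 93.2%, the whole 95% interval of the log2 fold change lay within 0.5 on either side of 0, which was so for 46.5% of all tested genes. The median SE was 0.073 for the members and 0.134 for all tested genes, so this contrast also depends on precision. In 14 members the 4 knockdown libraries lay below the 4 scrambled ones and in 3 they lay above, where all tested genes gave 11.1% and 9.54%. The groups overlapped in the other 71. Members share the same libraries and are not replicates, so these shares describe the genes and carry no test.

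**Figure D1:**
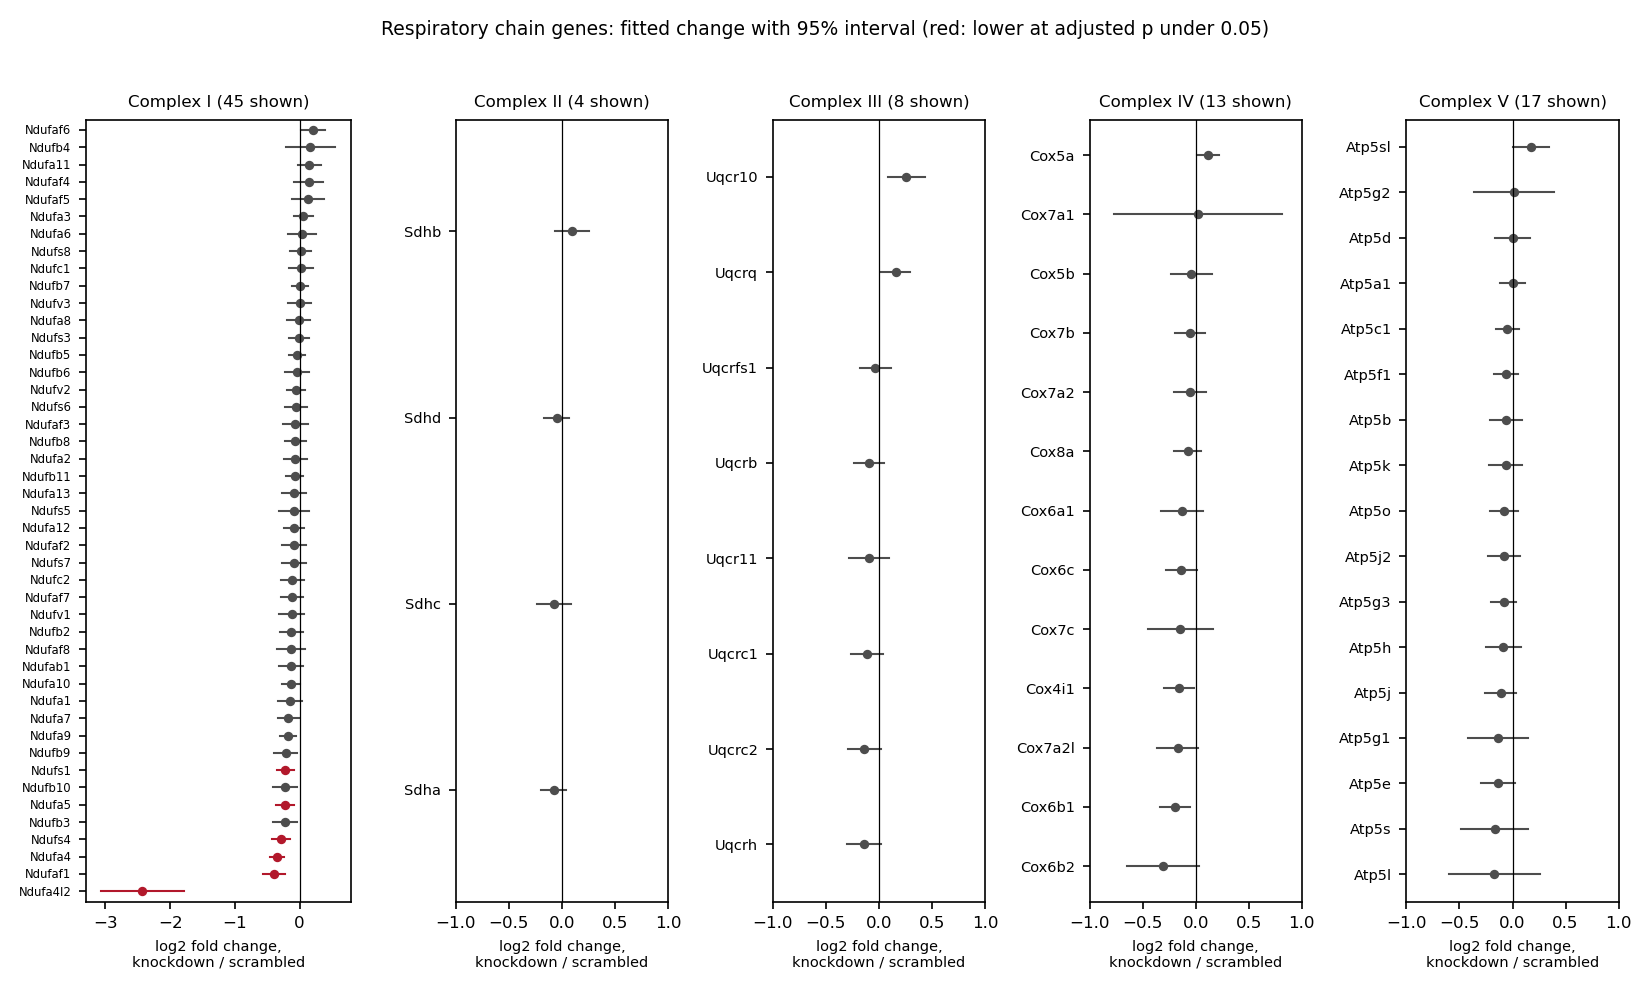
Fitted log2 fold change (knockdown over scrambled, x axis) of 87 of the 88 tested genes with its 95% interval, 1 panel per complex, with members lower at an adjusted p under 0.05 in red. Most points sit slightly left of 0, and the 6 red points are all in the complex I panel, whose x axis is wider to hold Ndufa4l2 at -2.43.

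The pattern was similar by complex. The median log2 fold change was -0.09 in complex I, -0.06 in complex II, -0.09 in complex III, -0.13 in complex IV and -0.08 in complex V. Summed over the 46 tested complex I genes, the libraries held 3582 ± 220 CPM with the knockdown and 3871 ± 76.1 CPM with the scrambled shRNA (SD, n = 4 each), so the knockdown level was 92.5% of the scrambled level. Here the knockdown libraries, from 3271 to 3780 CPM, were below the scrambled ones, from 3785 to 3948 CPM, by a narrow margin. Complex IV genes summed to 1684 to 1987 CPM in knockdown libraries, against 1953 to 2068 CPM in scrambled libraries, with replicate 3 of the knockdown inside the scrambled range. The summed knockdown level was 97.0% of the scrambled level for complex II, 96.4% for complex III, 92.4% for complex IV and 96.8% for complex V. Over all 88 members it was 95.1%, with 14571 ± 819 CPM in knockdown cells and 15318 ± 484 CPM in scrambled cells (SD, n = 4 each).

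The summed level varied within the knockdown group in the order opposite to the granule markers. It was 14502, 14747, 15510 and 13524 CPM in knockdown replicates 1 to 4, and 15780, 15692, 14897 and 14901 CPM in scrambled replicates 1 to 4. Knockdown replicate 4, lowest in respiratory chain RNA, had the highest granule marker sum, and knockdown replicate 3, highest in respiratory chain RNA, had the lowest of its group. With the primary granule level of each library added to the fit as a covariate, a choice made after seeing the data, 2 members stayed lower, Ndufa4 and Ndufa4l2. In that fit the median of the members was -0.02, 52 of 88 were below 0, and 4.96% of all tested genes were called. The covariate, the mean centred log2 CPM of the granule markers, was 2.59, 1.70, -1.91 and 3.52 in knockdown replicates 1 to 4. In scrambled replicates 1 to 4 it was -3.07, -0.979, 0.0952 and -1.95. It ran with the group except in knockdown replicate 3, so this fit cannot tell granule level and knockdown apart.

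**Figure D2:**
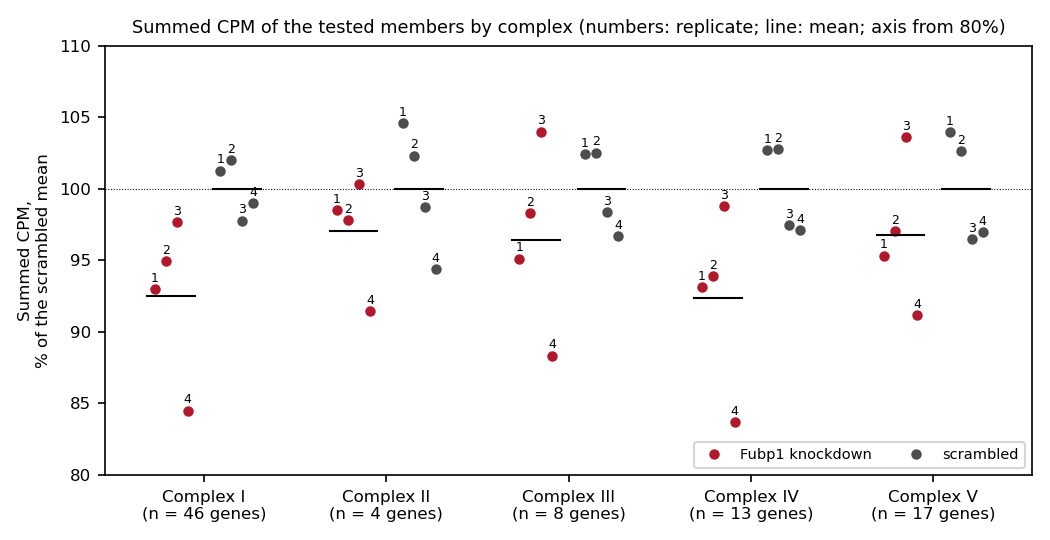
Summed CPM of the tested genes of each complex in each library, as a percentage of the scrambled mean (y axis from 80%), with replicate numbers beside the points, knockdown libraries in red left of scrambled libraries in grey, and the group mean as a line. Knockdown replicate 4 is the lowest point in every complex, and complex I is the one whose groups do not overlap.

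Ndufa4 was the abundant member with the clearest change. It was named as a complex I subunit and is known to sit in complex IV. It measured 137, 136, 136 and 128 CPM in knockdown replicates 1 to 4, against 169.5, 174, 176 and 166 CPM in scrambled replicates 1 to 4. All knockdown libraries lay well below all scrambled ones, and knockdown replicate 3 was no exception. The log2 fold change was -0.35 (SE 0.05; adjusted p = 0.00489, edgeR quasi-likelihood test). Ndufa4 passed the threshold in each of the 15 alternative fits tried, including each of the 8 that left out 1 library.

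Ndufa4l2 had the greatest change of the tested members, at a low level. It encodes a paralog of NDUFA4 that is known as a target of hypoxia-inducible factor and as a brake on complex I. It measured 0.282, 0.198, 0.159 and 0.152 CPM in knockdown replicates 1 to 4, from 7, 6, 5 and 7 counts. In scrambled replicates 1 to 4 it measured 1.19, 1.17, 1.04 and 0.809 CPM, from 43, 38, 40 and 18 counts. The groups did not overlap, and the knockdown mean was 18.8% of the scrambled mean. Its log2 fold change was -2.43 (SE 0.29; adjusted p = 0.00293, edgeR quasi-likelihood test). The gene passed the low-count filter through the scrambled libraries, and a filter that asked for at least 1 CPM in at least 4 libraries left it untested. Its exons overlap those of Shmt2 on the other strand by 32 bases, and the strand setting of the counting is not given. Per kilobase of exon, Ndufa4l2 stood at 0.181 CPM in knockdown cells and 0.961 CPM in scrambled cells, while Ndufa4 stood at 97.1 CPM per kilobase in knockdown cells and 124 in scrambled cells.

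Ndufaf1, an assembly factor that helps to build the membrane arm of complex I, was also called lower. It measured 29.0, 32, 35.0 and 31.9 CPM in knockdown libraries, against 40.7, 42.5, 44.4 and 40.8 CPM in scrambled libraries. The groups were separate, at -0.40 on the log2 scale (SE 0.07; adjusted p = 0.0131, edgeR quasi-likelihood test). The call was lost with the granule covariate (adjusted p = 0.0809) and with a replicate block (adjusted p = 0.0518). Ndufaf1 was 1 of 8 tested Ndufaf genes, or 12.5%, where 7.29% of all tested genes were lower. The other 7 did not pass. Ndufaf6, also an assembly factor, was above the scrambled range in all knockdown libraries (17.4 ± 0.552 CPM in knockdown cells and 15 ± 0.639 CPM in scrambled cells; SD, n = 4 each), with an adjusted p of 0.106.

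The upstream sequence of the 2 clearest abundant calls is shown with the motifs of factors known to act on respiratory chain promoters. Bases before the annotated gene are given for Ndufa4 (chr6:11907498-11907700, minus strand) and Ndufaf1 (chr2:119662835-119663084, minus strand). For Ndufa5 a short site is given (chr6:24527697-24527726, minus strand) that lies before its RefSeq starts but inside the gene as GENCODE M21 annotates it. They are from RefSeq on GRCm38.p6, 5′ to 3′, with the letters CCGGAAG (bound by ETS factors such as GABP) or a match to the NRF1 motif, with any base allowed at 1 position, in capitals.
Ndufa4: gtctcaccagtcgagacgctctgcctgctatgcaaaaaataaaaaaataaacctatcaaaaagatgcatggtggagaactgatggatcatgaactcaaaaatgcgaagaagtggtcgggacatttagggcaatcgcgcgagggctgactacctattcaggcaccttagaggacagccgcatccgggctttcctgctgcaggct
Ndufaf1: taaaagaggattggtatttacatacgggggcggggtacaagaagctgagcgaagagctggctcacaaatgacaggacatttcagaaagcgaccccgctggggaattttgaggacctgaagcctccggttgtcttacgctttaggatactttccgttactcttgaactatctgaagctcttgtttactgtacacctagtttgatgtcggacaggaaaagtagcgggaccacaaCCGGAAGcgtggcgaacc
Ndufa5: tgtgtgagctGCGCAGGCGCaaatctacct
The Ndufaf1 window holds the ETS letters on its own strand, 18 bases before the RefSeq start, and the Ndufa5 site matches the NRF1 motif on the other strand. The Ndufa4 window holds neither, nor the hypoxia-inducible factor core ACGTG.

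Both strands of the 250 bases before the start were searched in the 72 tested members with a RefSeq promoter. The ETS letters were present in 13, or 18.1%, where 7.05% of all 27025 promoters held them. The NRF1 motif was present in 13, or 18.1%, where 3.86% of all promoters held it, and ACGTG in 13, or 18.1%, where 16.6% did. Of the 4 called members with a promoter in the table, 1 held the ETS letters, 1 the NRF1 motif and 0 ACGTG. A match is a run of letters and does not show that a factor binds there. A promoter counts once however many matches it holds. The 27025 promoters were not limited to genes tested here, whereas the members were, so these shares come from unlike sets.

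Among the 7 nuclear-encoded core subunits of complex I, which carry its redox centres or line its quinone site, 1 was lower, or 14.3%, where 7.29% of all tested genes were. This was Ndufs1, the subunit with several iron-sulfur clusters. It measured 257, 258, 276 and 235 CPM in knockdown libraries, against 312, 293, 288 and 301 CPM in scrambled libraries. The groups were separate by a small margin, between 276 and 288 CPM, and the log2 fold change was -0.22 (SE 0.06; adjusted p = 0.0395, edgeR quasi-likelihood test). Its exons overlap those of Eef1b2 and Ino80dos on the other strand by 498 bases. The flavin-binding Ndufv1 gave -0.12 (adjusted p = 0.343) and overlapped between groups.

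Of the 29 other complex I subunits, which surround the core, 2 were lower, or 6.9%, at the background of 7.29%. Ndufs4, whose loss causes Leigh-like disease in mice, measured 47.9, 48.4, 49.7 and 44.8 CPM in knockdown libraries, against 59.6, 59.6, 59.0 and 54.7 CPM in scrambled libraries (log2 fold change -0.29, SE 0.06; adjusted p = 0.0184, edgeR quasi-likelihood test). Ndufa5, a subunit of the peripheral arm, measured 55.6, 52.8, 56.1 and 48.5 CPM in knockdown libraries, against 60.5, 60.4, 63.7 and 64.2 CPM in scrambled libraries (log2 fold change -0.22, SE 0.06; adjusted p = 0.0458, edgeR quasi-likelihood test). Neither gene overlapped between groups. The range of the other 27 ran from -0.23 for Ndufb3 (adjusted p = 0.0859) to 0.17 for Ndufb4 (adjusted p = 0.531). Ndufa9, a peripheral subunit, came nearest to the threshold among them, with -0.18 and an adjusted p of 0.0626. DESeq2 (adjusted p = 0.0318) and the fits without knockdown replicate 3 (0.0408) or scrambled replicate 4 (0.0442) called it lower.

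The calls of Ndufs1, Ndufa5 and Ndufs4 were less stable than those of Ndufa4 and Ndufaf1. Ndufs1 and Ndufa5 each passed in 1 of 8 fits with a library removed, the fit without knockdown replicate 3, and reached adjusted p-values of up to 0.0936 and 0.101. Ndufs4 was lost without scrambled replicate 1, 2 or 3 (adjusted p up to 0.0669), and all 3 were lost with the granule covariate (0.308, 0.280 and 0.128 for Ndufs1, Ndufa5 and Ndufs4). Ndufa4 and Ndufaf1 kept their calls in all 8 fits with a library removed. Ndufa4l2 passed in all 8 too, but it entered the test through the scrambled libraries, so its repeats carry no added support.

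**Figure D3:**
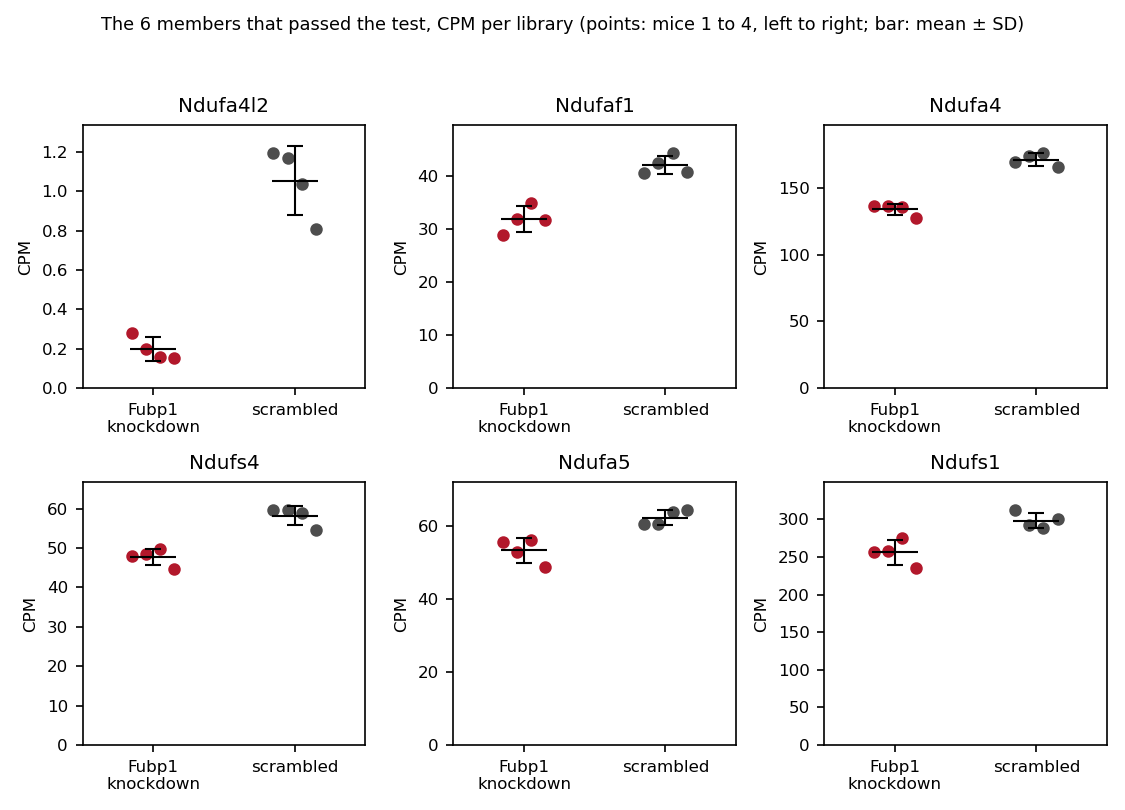
CPM (y axis, from 0) of the 6 members that passed the test, with the 4 knockdown libraries in red on the left and the 4 scrambled libraries in grey on the right of each panel, and mean ± SD as bars. The red points lie below the grey points in all 6 panels, with the widest relative gap in Ndufa4l2 and narrow gaps in Ndufa5 and Ndufs1.

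By edgeR's quasi-likelihood test and by DESeq2 0 of the 4 complex II genes passed, and 0 had an unadjusted p under 0.05 in edgeR. The complex is succinate dehydrogenase, shared between the citric acid cycle and the chain. The flavoprotein gene Sdha measured 513 ± 16.9 CPM in knockdown cells and 543 ± 22.6 CPM in scrambled cells (SD, n = 4 each), with a log2 fold change of -0.08 and a 95% interval from -0.20 to 0.03. The iron-sulfur protein gene Sdhb gave 0.09, with an interval from -0.07 to 0.26.

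In complex III 0 of 8 genes passed in edgeR's quasi-likelihood test, with 2 higher and 0 lower at an unadjusted p under 0.05. Uqcr10, a small subunit, measured 117, 108, 113 and 92.4 CPM in knockdown libraries, against 89.7, 88.0, 86.6 and 95.3 CPM in scrambled libraries. Knockdown replicate 4 fell inside the scrambled range while the other 3 were above it. The log2 fold change was 0.26 (SE 0.08) and the adjusted p 0.0550 by edgeR's quasi-likelihood test; DESeq2, the stricter filter on low counts and the fit without knockdown replicate 4 called it higher, with adjusted p-values down to 0.0152. Uqcrq, also a small subunit, gave 0.16 (adjusted p = 0.108), whereas the core proteins Uqcrc1 and Uqcrc2 gave -0.11 and -0.14 and the Rieske protein Uqcrfs1 gave -0.04. Uqcr10, Uqcrq, Ndufa9, Ndufb3, Ndufb4, Ndufaf6, Atp5l and Atp5sl were picked for mention after their values were seen.

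Of the 13 tested complex IV genes 0 passed in edgeR's quasi-likelihood test, although their median was the lowest of the complexes. These 13 go by symbol and leave out Ndufa4. At an unadjusted p under 0.05 there were 2 lower and 1 higher. Cox6b1, which joins the monomers of the dimer, measured 211, 211, 227 and 187 CPM in knockdown libraries, against 238, 241, 235 and 242 CPM in scrambled libraries. The groups were separate, with a log2 fold change of -0.19 (SE 0.06) and an adjusted p of 0.0666 by edgeR's quasi-likelihood test; DESeq2 and the fit without knockdown replicate 3 called it lower, with adjusted p-values down to 0.0235. Cox4i1, the common isoform of the largest nuclear-encoded subunit, gave -0.16 (adjusted p = 0.110) with overlapping groups. Cox5a went the other way: its 133 ± 3.02 CPM in knockdown cells stood above 123 ± 2.46 CPM in scrambled cells with no overlap (SD, n = 4 each), with a log2 fold change of 0.11 and an adjusted p of 0.115. Cox7a2l, a factor that joins complexes III and IV in supercomplexes, gave -0.17 (adjusted p = 0.203).

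Complex V held the most abundant members, and by edgeR's quasi-likelihood test and by DESeq2 0 of its 17 tested genes passed, with 1 higher at an unadjusted p under 0.05 in edgeR. Atp5b, the catalytic beta subunit, measured 2820 ± 213 CPM in knockdown cells and 2945 ± 157 CPM in scrambled cells (SD, n = 4 each; log2 fold change -0.06, 95% interval -0.21 to 0.09). The alpha subunit gene Atp5a1 measured 1844 ± 66.9 CPM in knockdown cells and 1843 ± 79.7 CPM in scrambled cells (SD, n = 4 each), with a 95% interval of the log2 fold change from -0.12 to 0.12. The 17 tested genes ranged from -0.17 for Atp5l to 0.17 for Atp5sl, which is not a subunit.

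Several subunits have isoforms restricted to certain tissues, and the ubiquitous form was the abundant one in both groups. Per kilobase of exon, Cox4i1 stood at 267 CPM in knockdown cells and 298 CPM in scrambled cells, while Cox4i2, the isoform of lung and hypoxic cells, stood at 1.28 CPM in knockdown cells and 0.175 CPM in scrambled cells. The muscle form Cox6a2, at 0.761 CPM per kilobase in knockdown cells and 0.0406 in scrambled cells, was far below Cox6a1, at 382 in knockdown cells and 418 in scrambled cells. Cox8a stood at 406 CPM per kilobase in knockdown cells and 428 in scrambled cells, and the muscle form Cox8b rested on at most 3 counts in any library. Of the 3 genes for subunit c of the ATP synthase, Atp5g3 was the highest, at 199 CPM per kilobase in knockdown cells and 211 in scrambled cells. Atp5g1 stood at 4.73 in knockdown cells and 5.18 in scrambled cells, and Atp5g2 at 1.83 in knockdown cells and 1.81 in scrambled cells. Cox6b2, known from testis, was an exception in level: it stood at 56.6 CPM per kilobase in knockdown cells and 70.1 in scrambled cells, while Cox6b1 stood at 295 in knockdown cells and 338 in scrambled cells.

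Among the rare isoforms, Cox4i2 and Cox6a2 were uneven within the knockdown group. Cox4i2 had 14, 25, 0 and 121 counts in knockdown replicates 1 to 4, against 2, 9, 5 and 2 counts in scrambled replicates 1 to 4. Cox6a2 had 0, 8, 0 and 83 counts in knockdown replicates 1 to 4, against 1, 1, 2 and 0 counts in the scrambled ones. In both genes knockdown replicate 4 was highest and knockdown replicate 3 had 0 counts, which also hold the highest and the lowest granule marker sums of the group; the part of those cells in this was not tested. Neither passed the low-count filter; DESeq2 on all genes and the fit without knockdown replicate 3 called Cox4i2 higher.

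**Figure D4:**
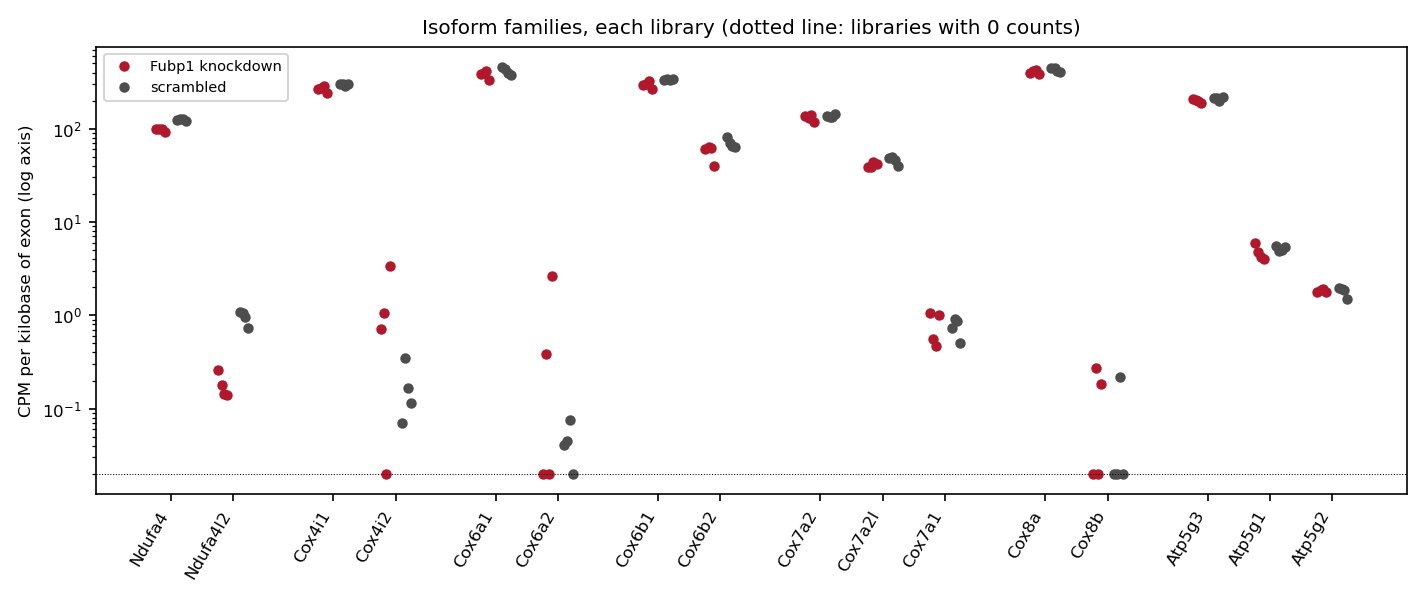
CPM per kilobase of exon (log axis) of isoform families in each library, knockdown in red left of scrambled in grey, with libraries at 0 counts placed on the dotted line. Cox4i1, Cox6a1, Cox7a2 and Cox8a lie far above Cox4i2, Cox6a2, Cox7a1 and Cox8b, Cox6b2 lies closer to Cox6b1, and Ndufa4l2 is lower in all 4 knockdown libraries.

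Genes around the respiratory chain were read from 4 lists. Of 43 tested assembly factors that the symbols above do not cover, 7 were lower and 0 higher, a share lower of 16.3% compared with 7.29% of all tested genes. Cox15, needed for the haem A of complex IV, measured 69.1, 64.5, 63.3 and 65.9 CPM in knockdown libraries, against 82.2, 91.6, 95.4 and 85.5 CPM in scrambled libraries (log2 fold change -0.43, SE 0.06; adjusted p = 0.00644, edgeR quasi-likelihood test). The groups were well apart. By the same test Tmem186 (complex I assembly) gave -0.40 with an adjusted p of 0.00987, and Uqcc1 (complex III assembly) gave -0.33 with 0.0198. Surf1 (complex IV assembly) gave -0.27 with 0.0224, Sdhaf2, which puts flavin into Sdha, gave -0.34 with 0.0281, and Taco1, a translation activator for a mitochondrial complex IV subunit, gave -0.32 with 0.0356. The seventh, Acad9 of complex I assembly, was named after its value was seen (-0.21, adjusted p = 0.0431). The median of the list was -0.10 and 76.7% of it was below 0, much as in the members themselves. Cox15 and Tmem186 kept their calls in all 8 fits that left out 1 library and with the granule covariate; Cox15 was lost with a replicate block (adjusted p = 0.0537). Uqcc1, Surf1, Sdhaf2 and Taco1 passed in 6, 4, 2 and 3 of those and were lost with the covariate, at adjusted p-values of 0.126, 0.182, 0.0553 and 0.138.

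Of 21 tested regulators of respiratory chain and mitochondrial DNA transcription, 3 were lower (14.3%, against 7.29% of all tested genes) and 1 higher. Tfam, the packaging and transcription factor of mitochondrial DNA, measured 83.6, 94.9, 95.2 and 91.8 CPM in knockdown libraries, against 120.0, 126, 122 and 121 CPM in scrambled libraries (log2 fold change -0.42, SE 0.06; adjusted p = 0.00506, edgeR quasi-likelihood test). The groups were far apart and the call held in every alternative. Twnk, the helicase of mitochondrial DNA, gave -0.27 (adjusted p = 0.0165), and Nrip1, a nuclear corepressor known to restrain oxidative genes, gave -0.45 (adjusted p = 0.0126), both by the same test; with a replicate block both were lost (adjusted p = 0.0842 for Twnk and 0.0643 for Nrip1), and Nrip1 also with the granule covariate (0.0844). The transcription factors Nrf1 and Gabpa, known to act on the members' promoters, gave 0.00 and -0.03 and overlapped between groups. Gabpb1 and Gabpb2 were named after their values were seen. Gabpb2 was lower without overlap but missed the threshold (-0.23, adjusted p = 0.0753, edgeR quasi-likelihood test). Gabpb1 gave 0.12 with overlap (adjusted p = 0.365, same test).

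Hif1a, the oxygen-regulated subunit of hypoxia-inducible factor, was the regulator that was higher. It measured 53.0, 64.0, 66.9 and 82.3 CPM in knockdown libraries, against 34.6, 34.9, 33.1 and 32.6 CPM in scrambled libraries. All knockdown libraries were above all scrambled ones, and the log2 fold change was 0.98 (SE 0.12; adjusted p = 0.00343, edgeR quasi-likelihood test), or 0.94 with the granule covariate (adjusted p = 0.0151). Its transcript thus differed in the direction opposite to that of Ndufa4l2, and Cox4i2, also known to respond to hypoxia, was uneven as described. HIF-1 alpha is regulated mainly as a protein, which RNA counts do not show.

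Among 9 tested genes for cytochrome c, cytochrome c1 and dehydrogenases that feed ubiquinone, 1 was higher and 0 lower. The 11.1% higher is near the 8.02% of all tested genes. This was Gpd2, the mitochondrial glycerol-3-phosphate dehydrogenase, at 94.3, 102, 105 and 108 CPM in knockdown libraries, against 81.7, 68.6, 60.8 and 82.7 CPM in scrambled libraries (0.48 on the log2 scale, SE 0.10; adjusted p = 0.0207, edgeR quasi-likelihood test). The groups were separate, and the call was lost without scrambled replicate 2 (adjusted p = 0.0684) and with a replicate block (0.0707). Cyc1, the cytochrome c1 of complex III, gave -0.04.

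The subunits encoded by mitochondrial DNA did not share the downward lean. Of the 7 tested, 0 were called by edgeR's quasi-likelihood test, 3 were higher at an unadjusted p under 0.05, and 6 had a fitted change above 0, with a median of 0.19. They summed to between 12352 and 16165 CPM in knockdown libraries, and to between 11473 and 14670 CPM in scrambled libraries, with overlap. The table lists mt-Nd3, mt-Nd4l, mt-Co2, mt-Atp6 and mt-Atp8 at 0 in every library, and mt-Co3 at 1 count in all. Of their 50-base stretches, 98.0 to 100% also occur in transcripts of other annotated genes, mt-Atp8 excepted at 0%. These 6 could not be read from this table, and values of mt-Nd4 and mt-Co1, with 62.2 and 51.1% shared, are uncertain.

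**Figure D5:**
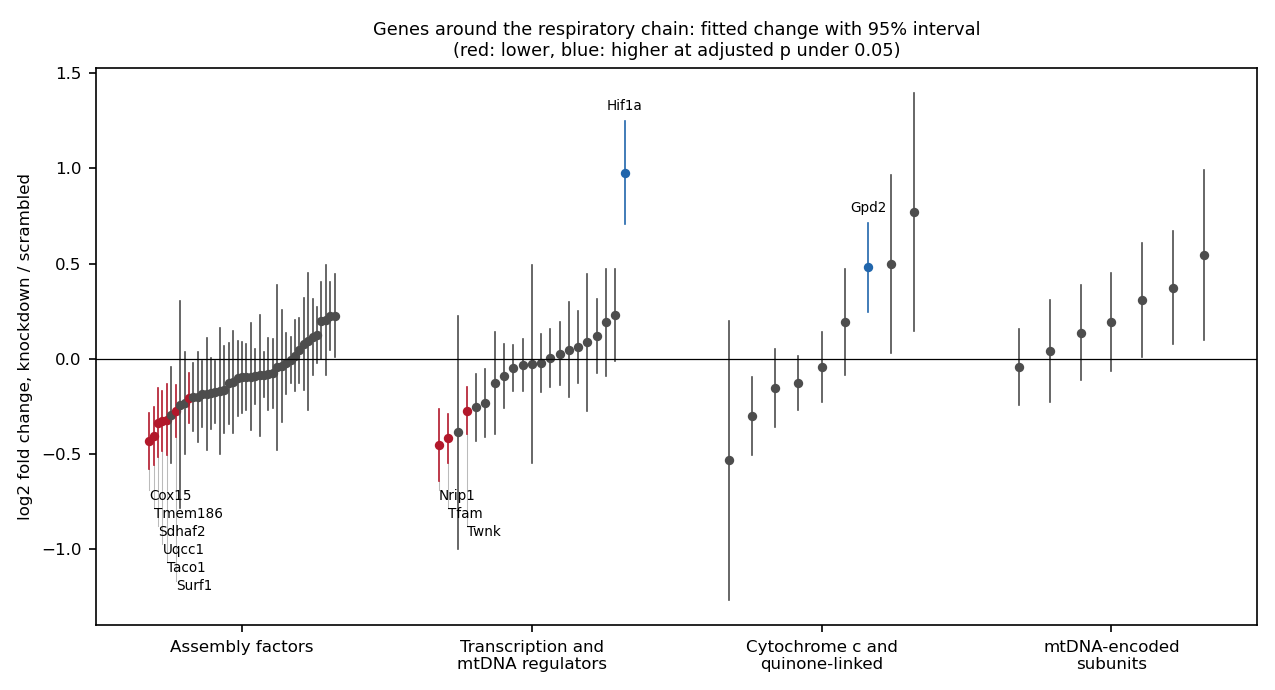
Fitted log2 fold change (knockdown over scrambled, y axis) with its 95% interval for each tested gene of the 4 lists, sorted within each list, with genes lower at an adjusted p under 0.05 in red and higher in blue. Red points stand among the assembly factors and regulators, Hif1a at 0.98 is the blue point of the regulators, and the mitochondrially encoded subunits lie mostly above 0.

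Other cell types were read from marker lists in the same libraries. The 5 primary granule markers were all higher at an unadjusted p under 0.05 and 0 of them passed after adjustment by edgeR's quasi-likelihood test, with overlap between groups. Of 8 erythroid markers 3 were higher and 4 lower (37.5% and 50%, where all tested genes gave 8.02% and 7.29%), and their sum ran from 4609 to 7072 CPM in knockdown libraries and from 6108 to 6873 CPM in scrambled libraries. Of 4 tested megakaryocyte markers 2 were higher (50%, against 8.02% of all tested genes), with sums from 111 to 191 CPM in knockdown libraries, above the 49.97 to 64.1 CPM in scrambled libraries. Erythroid and megakaryocytic transcripts were thus present in Lineage- cells of both groups, and their part in the differences above was not tested. Stromal markers summed to 12.2 to 729 CPM in knockdown libraries, the highest being replicate 1, and to 42.4 to 55.8 CPM in scrambled libraries. Most of the scrambled sum was Col1a2, at 42.2 to 50.9 CPM. In knockdown replicate 1 Col1a2 measured 397 CPM and Col1a1 332 CPM, while Col1a1 reached at most 6.86 CPM in any other library. Without knockdown replicate 1 the members called lower were Ndufa4, Ndufa4l2, Ndufaf1, Ndufb3 and Ndufs4. The part of stromal cells in the differences above was not tested. Late neutrophil markers summed to 1.02 to 39.2 CPM in knockdown libraries, against 1.57 to 7.58 CPM in scrambled libraries. Monocyte markers gave 7.87 to 51.6 CPM in knockdown and 3.97 to 8.90 CPM in scrambled libraries, and mast cell and basophil markers 1.05 to 58.9 CPM in knockdown and 1.08 to 13.1 CPM in scrambled libraries. B cell markers gave 1.02 to 33.8 CPM in knockdown and 0.194 to 1.60 CPM in scrambled libraries. T and NK cell markers gave 2.06 to 86.6 CPM in knockdown and 1.804 to 8.13 CPM in scrambled libraries, and the defining T cell gene Cd3e had 0 counts throughout. Nearly all of this sum came from 1 of the 4 listed T and NK markers, the only one tested. In knockdown replicates 1 to 4 the sum was 27.8, 18.8, 2.06 and 86.6 CPM, the same order as the granule marker sums. It does not by itself show that T or NK cells were present.

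Read sharing between gene copies could touch some members. The respiratory chain genes have many processed copies in the mouse genome, and 51 of the 88 tested members share 50-base stretches with another annotated transcript. The share was over 10% in 20 members and over 50% in 1, Ndufaf2 at 64.1%. Ndufa4, Ndufaf1, Ndufs4 and Ndufa5 share 0% and overlap no exon of another gene.

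The 6 called genes lie at these positions on GRCm38 by GENCODE M21, matched by Ensembl identifier: Ndufa4 (ENSMUSG00000029632) at 6:11900292-11907497 on the minus strand, Ndufa4l2 (ENSMUSG00000040280) at 10:127514967-127517154 on the plus strand, and Ndufa5 at 6:24518666-24528013 on the minus strand. Ndufaf1 lies at 2:119655446-119662827, Ndufs1 at 1:63143596-63176833 and Ndufs4 at 13:114287795-114388258, all on the minus strand.

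An adjusted p was given for 90 members in the authors' deposited table, of which 8 are lower and 1, Uqcr10, is higher at 0.05. Of all genes with such a value there, the authors' deposited table has 21.3% that pass, 11.9% as higher and 9.43% as lower. The 6 members called here are among those 8 of the authors' deposited table, with the same sign.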

How the data were processed

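RNA of sorted bone marrow cells from 8 mice, 4 per group, was sequenced after ribosomal depletion (500 ng of RNA per library, stranded total RNA kit, 2 depletion kits named without saying which library used which, per the labels' protocols). The authors deposited whole-number read counts per gene, unnormalized, together with the authors' log2 fold changes with a standard error, a mean normalised count (signal), a test statistic (score) and raw and adjusted p-values. CASAVA 1.8 and DESeq2 1.18.1 were used per the submitters' processing notes, with R 3.4.3 and biomaRt 2.34.2 per the design text. Neither labels nor headers name the aligner, counter, strand setting, annotation or build (not given in the sources used here), so reads shared by gene copies or overlapping genes could have been split or dropped.

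Each count column was tied to its sample by a number in the sample description; 0 columns were left unmatched, and 285 of 47729 genes had no symbol. Total counts of 22465303 to 44761356 per library set the precision. Within groups, libraries differed by a chi-square of 10.7 to 88.9 per degree of freedom, so none was a copy. Counts were tested in edgeR 4.0.16 (R 4.3.3) with filterByExpr, TMM factors (0.965 to 1.03), a robust quasi-likelihood F test, two-sided, and Benjamini-Hochberg adjustment over 13462 genes, threshold 0.05. The script was tested on simulated counts. CPM per library are given as mean ± SD over 4 mice, intervals cover 95%, and SE is the fold change over the root of F. Alternatives were RLE factors, DESeq2 1.42.0, limma-voom 3.58.1, no filter, at least 1 CPM in 4 libraries, a replicate block and each library left out; the granule covariate was added after seeing the data. Gene lengths and shared 50-base stretches come from GENCODE M21, promoters from RefSeq.

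The members, lists and markers were chosen with earlier results of these data known. Genes named were the called members, the most abundant member of each complex, core subunits and isoform families, and up to 6 called genes of each list; 1 named core subunit and 1 marker are counted but not reported here.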

Additional observations from a re-analysis of the deposited data

Results flagged for a closer look

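In a group of 4, a library was set apart when its gap to the nearest other exceeded Dixon's 95% critical share of the range. Of 110 groups checked 10 were set apart; chance gives about 1 in 20. In the knockdown group, replicate 4 was low in Ndufa4 (128 CPM, others 136 to 137) and in Cox6b2 (44.4 CPM, others 67.4 to 69.7), and high in Cox6a2 (1.81 CPM, others 0 to 0.264). Replicate 3 of the knockdown was high in Uqcrh (188 CPM, others 159 to 163), and replicate 1 was high in Sdhaf2 (67.9 CPM, others 62.7 to 63.1). In the scrambled group, replicate 4 was low in Ndufs4 (54.7 CPM, others 59.0 to 59.6), in Uqcrc2 (354 CPM, others 401 to 407) and in Uqcrh (169 CPM, others 189 to 191), and high in Fubp1 (396 CPM, others 284 to 296). Replicate 3 of the scrambled group had 0.0779 CPM of Cox8b, where the others had 0.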

How the results depend on the processing

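No called gene named here changed sign in any alternative. Fitted values near 0 of uncalled genes did: Atp5a1 gave -0.00372 with DESeq2, -0.0219 without a filter and -0.0297 to 0.0193 with 1 library left out. Cox7a1 gave -0.0308 with limma-voom, -0.00192 without a filter, -0.0157 with the replicate block, -0.606 with the granule covariate and -0.163 to 0.180 with 1 library left out, and Atp5g2 gave -0.00801 without a filter and -0.0801 to 0.0442 with 1 library left out. With the granule covariate Atp5b gave 0.0580, Ndufv1 0.0310, Uqcrc1 0.00914, Uqcrfs1 0.0753, Cox6a1 0.00251 and Cox7a2 0.0381, and 52 of the 88 members were below 0. Members called lower numbered 6 with RLE factors, 5 with limma-voom, 8 with DESeq2 and 4 each without a filter and with the 1 CPM filter; DESeq2 called 2 higher (Cox4i2 and Uqcr10) and the 1 CPM filter 1 (Uqcr10). Genes called over all tested ones were 3588 with DESeq2, 400 with the replicate block and 668 with the granule covariate. Leaving out 1 library gave 526 to 3425 genes called, 0 to 2 members higher, 3 to 11 members lower and a median of the members from -0.11 to -0.05. The 11 lower members, with 1 higher, came without knockdown replicate 3, when 24.7% of all tested genes were called; 3 were lower without scrambled replicate 1, 2 or 3. With the granule covariate 2 members were lower, and the medians were -0.0193 for all members, -0.0341 for complex I, -0.00548 for complex II, -0.00199 for complex III, -0.0412 for complex IV and -0.00784 for complex V. The cause was not tested. Replicate numbers are shared by both groups. Same-numbered libraries did not deviate together (correlations -0.56 to 0.02), and the main fit did not pair them. These correlations use values centred within groups of 4 libraries, so they cannot exclude a shared batch. With the replicate block 2 members were lower, Ndufa4 and Ndufa4l2. With 4 mice per group and counts under about 50, Ndufa4l2 and the rare isoform Cox7a1 have the widest intervals of the tested members. The rare isoforms Cox4i2, Cox6a2 and Cox8b did not enter the main test and have no interval.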
